A study of Mus musculus with 14 samples.

Results

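The acyl-CoA thioesterases Acot1, Acot2, Acot3, Acot4, Acot8, Acot12, Acot13, Them4 and Them7 were compared between AMPK-knockout and control mouse livers. These 9 genes were taken by symbol from the ACOT and THEM families, out of 19505 genes measured. All 9 were on the array, each with 1 row, and no filter on level was applied. Acyl-CoA thioesterases cut fatty acyl-CoA into free fatty acid and coenzyme A, the reverse of the step by which acyl-CoA synthetases activate fatty acids. Each cell compartment has its own enzymes, so that they set local pools of acyl-CoA and coenzyme A in the cytosol, mitochondria and peroxisomes. In liver several of the type I enzymes are known to be induced through PPAR alpha, a nuclear receptor of the fasting response.

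Liver RNA of 14 samples from male mice on a C57BL/6 background was measured on Affymetrix arrays, 8 in the knockout group and 6 in the control group. All mice were homozygous for floxed AMPK alpha1 and alpha2 genes (Prkaa1 and Prkaa2), which encode the catalytic subunits of AMP-activated protein kinase, an energy sensor. The knockout group had received AAV8-TBG-Cre, a virus that expresses Cre recombinase from the hepatocyte promoter TBG, and the control group the same virus with an empty vector. Both groups ate a high-fat diet from 6 weeks of age for 4 weeks, were injected at 10 weeks, and then took metformin for 3 weeks (a daily dose of 50 mg/kg) before a 16 h fast. The labels give an age of 4 months, while the protocol adds up to 13 weeks. No group without metformin was analysed here, and since TBG acts in hepatocytes, the other liver cells of knockout mice should keep their floxed alleles uncut. Nothing states that each sample came from a mouse of its own, so the p-values describe sample-to-sample spread, which may be technical. In bulk liver RNA, fewer cells of a type and less RNA per cell cannot be told apart.

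Values are RMA intensities on a log2 scale, on which a difference of 1 is a doubling, with array medians between 5.82 and 5.97. The arrays formed 2 sets that no label describes, each with 4 knockout and 3 control samples. Set 1 held knockout 1 to 4 and control 1 to 3, and set 2 held knockout 5 to 8 and control 4 to 6. Correlations over all rows were 0.988 to 0.994 within sets and 0.951 to 0.963 across them. Differences are therefore knockout minus control from a limma fit with the set as a term, given with the SE, and adjusted p refers to the Benjamini-Hochberg method applied across the 19505 genes. Prkaa2 was lower by -1.13 ± 0.08 and Prkaa1 by -0.67 ± 0.13, and all 8 knockout samples lay below every control of their own set for both genes. Of 46 markers in 7 cell type lists 0 had an adjusted p under 0.05, against 0.702% of all genes. At that share a count of 0 says little about cell types. The 9 hepatocyte markers measured averaged 12.5 to 13.0 in knockout and in control samples. After centring on the sets, control 1 and control 4 scored 23.1 and 22.0 on the first principal component, against -13.6 to 8.61 for the other arrays. Their 8 sinusoidal endothelial markers lay -0.74 and -0.52 from the set mean, against -0.38 to 0.32 in knockout samples, and their Kupffer cell markers -0.51 and -0.31, against -0.46 to 0.37.

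The sequence upstream of Acot1, Acot2, Acot8 and Them7 is printed here because these 4 genes rose at an adjusted p under 0.05. Each stretch holds the 250 bases before the start in RefSeq, 5′ to 3′ on the strand of the gene (build GRCm38.p6), and capitals mark the hexamer AGGTCA on either strand, the half-site that PPAR alpha and other nuclear receptors bind.
Acot1 (chr12:84009252-84009501, plus strand): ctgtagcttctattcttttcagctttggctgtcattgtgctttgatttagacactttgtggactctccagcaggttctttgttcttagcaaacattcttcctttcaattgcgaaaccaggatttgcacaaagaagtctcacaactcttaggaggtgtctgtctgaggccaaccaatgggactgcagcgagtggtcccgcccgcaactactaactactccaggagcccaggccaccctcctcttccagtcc
Acot2 (chr12:83987611-83987860, plus strand): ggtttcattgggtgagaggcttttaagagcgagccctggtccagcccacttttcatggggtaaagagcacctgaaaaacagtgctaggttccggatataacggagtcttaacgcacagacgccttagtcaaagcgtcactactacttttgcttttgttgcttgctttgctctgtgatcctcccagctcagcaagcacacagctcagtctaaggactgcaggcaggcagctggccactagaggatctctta
Acot8 (chr2:164804882-164805131, minus strand): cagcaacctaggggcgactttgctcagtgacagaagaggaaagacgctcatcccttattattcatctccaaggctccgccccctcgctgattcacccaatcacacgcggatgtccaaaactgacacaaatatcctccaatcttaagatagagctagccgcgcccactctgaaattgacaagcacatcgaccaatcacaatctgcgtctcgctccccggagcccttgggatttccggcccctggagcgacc
Them7 (chr2:105224092-105224341, plus strand): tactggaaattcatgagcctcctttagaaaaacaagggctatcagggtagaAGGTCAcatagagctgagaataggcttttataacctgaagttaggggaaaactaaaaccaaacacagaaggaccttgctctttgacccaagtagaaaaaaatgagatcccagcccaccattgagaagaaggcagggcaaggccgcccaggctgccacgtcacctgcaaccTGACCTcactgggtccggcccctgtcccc
The hexamer occurred in Them7 on the gene's own strand, beginning 199 bases before the start, and on the opposite strand, beginning 29 bases before it. Acot1, Acot2 and Acot8 held none in this stretch. Of the 8 thioesterases with a window in the table, 3 held the hexamer, namely Acot4, Acot12 and Them7, against 14% of all 32851 windows of this length. The direct repeat that PPAR alpha prefers, searched as 2 copies of AGGNCA with 1 base between them, was in 0 of the 9 windows of these genes and in 0.338% of all windows, on either strand. AGGTCA is 1 form of AGGNCA, so the searches overlap. A match is only a run of letters, and no match concerns this window alone.

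Acot1, Acot2, Acot8 and Them7 were higher in the knockout livers by 1.30-fold to 1.61-fold. Of the 9 genes, 8 had a positive difference and these 4 rose (limma, adjusted p under 0.05), while 0.702% of all genes passed in either direction and 0.431% rose. None fell. The median difference of the 9 was 0.40, against 0.00 over all genes. These members were chosen with earlier results of these data known, and none of the other thioesterase genes listed below passed. For Acot1, Acot8 and Them7 all 8 knockout samples lay above every control of their own set, which held for 0.774% of all genes. Without the set term 0 of the 9 and 0% of all genes passed. Without 1 array 1 of the 9 passed when it was knockout 4, control 1 or control 2, and 2 when it was knockout 1, 3, 5, 7 or 8 or control 4 or 5. Without control 1 and control 4 together only Them7 of the 9 passed, and likewise without knockout 7 and knockout 8, whose descriptions repeat the numbers of knockout 5 and 6.

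**Figure D1:**
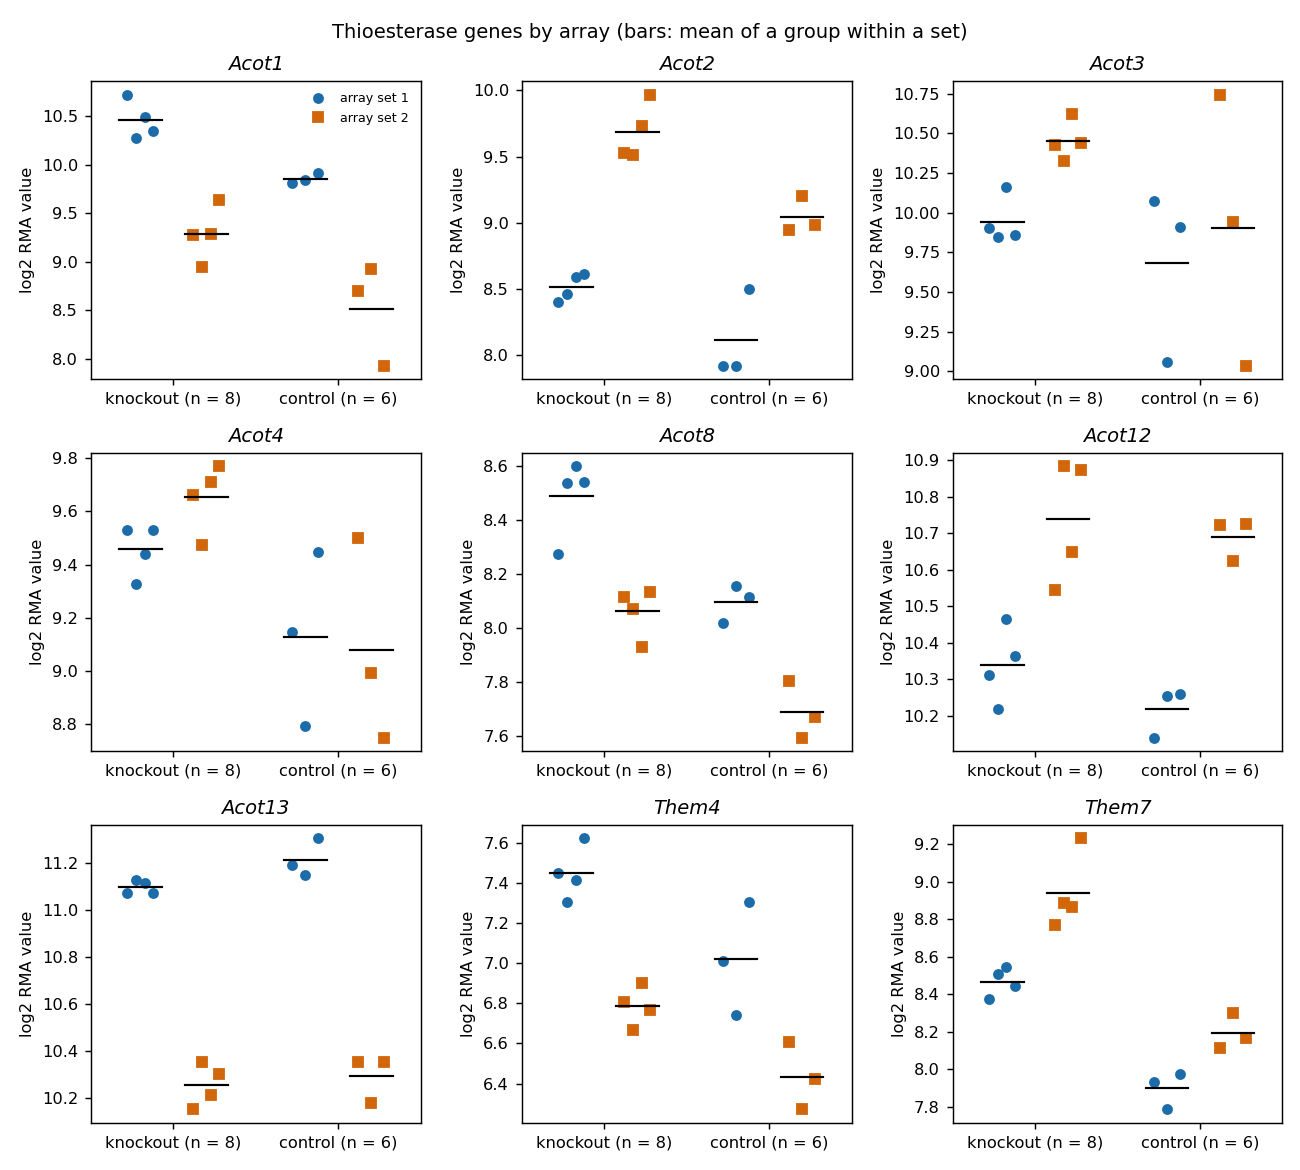
Log2 RMA value of each of the 9 thioesterases (vertical axis, own scale per panel) in knockout samples (left, n = 8) and control samples (right, n = 6), with circles for array set 1, squares for array set 2 and a bar at each mean within a set. For Acot1, Acot8 and Them7 every knockout point lies above every control point of the same set, while Acot3 control samples span 9.04 to 10.74.

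Acot1, the cytosolic long-chain acyl-CoA thioesterase, rose by 0.69, close to the 0.66 of Them7, and its difference was 0.55 without control 6. In set 1 it read 10.73, 10.28, 10.50 and 10.35 in knockout samples, against 9.81, 9.84 and 9.92 in control samples. In set 2 it read 9.28, 8.95, 9.29 and 9.64 in knockout samples, against 8.70, 8.92 and 7.93 in control samples. The groups did not overlap within a set, although the margin in set 2 was narrow, between knockout 6 at 8.95 and control 5 at 8.92. Control 6, at 7.93, was the lowest of all 14 samples. The difference was 0.69 ± 0.14 (1.61-fold, 95% interval 1.31 to 1.98; adjusted p = 0.0368), with 0.60 ± 0.12 in set 1 and 0.77 ± 0.24 in set 2. The exact two-sided permutation of labels within the sets gave p = 0.000816, the smallest that 1225 splits can give (0.0856 after adjustment over all genes). Leaving out any 1 of 9 arrays ended the call (highest adjusted p 0.0858), namely knockout 1, 3, 4, 5, 7 or 8 or control 1, 2 or 4.

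Acot2 encodes the mitochondrial enzyme that is the close relative of Acot1. Its values in set 1 were 8.40, 8.47, 8.59 and 8.62 in knockout samples, against 7.92, 7.92 and 8.50 in control samples. In set 2 they were 9.53, 9.51, 9.73 and 9.97 in knockout samples, against 8.95, 9.20 and 8.98 in control samples. The groups were separate in set 2, whereas in set 1 control 3 lay above knockout 1 and knockout 2. The rise was 0.52 ± 0.11 (1.44-fold, 95% interval 1.23 to 1.68; adjusted p = 0.0389), with 0.40 ± 0.15 in set 1 and 0.64 ± 0.14 in set 2. Leaving out any 1 array other than control 3 ended the call (highest adjusted p 0.104), while without control 3 the adjusted p was 0.00961. The sets moved these neighbouring genes apart: set 2 minus set 1 was -1.25 for Acot1 and 1.06 for Acot2, larger than either knockout difference.

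Acot3 and Acot4, the peroxisomal members of the same family, did not pass. Acot3, which acts on long-chain acyl-CoA, read 9.90, 9.85, 10.16 and 9.86 in knockout samples of set 1, against 10.07, 9.06 and 9.91 in control samples. In set 2 it read 10.42, 10.33, 10.62 and 10.44 in knockout samples, against 10.74, 9.94 and 9.04 in control samples. The groups overlapped in both sets: the knockout samples lay close together, while the control samples were spread over a wide range, with control 1 and control 4 the highest controls of their sets. The difference was 0.40 ± 0.21 (adjusted p = 0.545). Without control 1 and control 4 it was 0.71 ± 0.18, still not past the threshold (adjusted p = 0.142). In the other direction, it was 0.19 without control 6 (adjusted p = 0.767), the lowest value of set 2, and 0.29 without control 2. Control 1 and control 4 had low endothelial markers, and control 1 also had Kupffer cell markers just below the range of the knockout samples. The part of these in the Acot3 difference was not tested.

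Acot4, which in mice cleaves succinyl-CoA and related short dicarboxylic acyl-CoA, had a narrower spread. Knockout samples read 9.53, 9.33, 9.44 and 9.53 in set 1, against 9.15, 8.79 and 9.45 in control samples. In set 2 knockout samples read 9.66, 9.47, 9.71 and 9.77, against 9.50, 8.99 and 8.75 in control samples. In each set 1 control sample, control 3 or control 4, lay within the range of the knockout samples, and 5 of 8 knockout samples lay above every control of their set. The difference was 0.45 ± 0.12 (adjusted p = 0.118; 0.33 in set 1 and 0.57 in set 2), and the call was gained without control 3 (adjusted p = 0.0447).

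These genes are neighbours on mouse chromosome 12, in the order Acot2, Acot1, Acot4, Acot3, Acot5 and Acot6. Along that order the differences were 0.52, 0.69, 0.45, 0.40, 0.02 and 0.27. Acot5 and Acot6, both peroxisomal enzymes, belonged to the family but not to the 9 members. Acot5 was at the dim end of the scale, with means of 2.92 in knockout and 2.90 in control samples, and the array's background level is not known here. The 3 nearest measured genes on each side, looked up after the values of the cluster were seen, gave 0.04 for Papln, 0.06 for Numb and -0.00 for Riox1 before Acot2, and 0.18 for Dnal1, 0.16 for Pnma1 and 0.13 for Mideas after Acot6. None of these 6 passed, and the difference between the cluster and its flanks was not tested. Members of this family resemble each other in sequence, the probes were not examined here, and signal shared between paralogues was not tested.

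**Figure D2:**
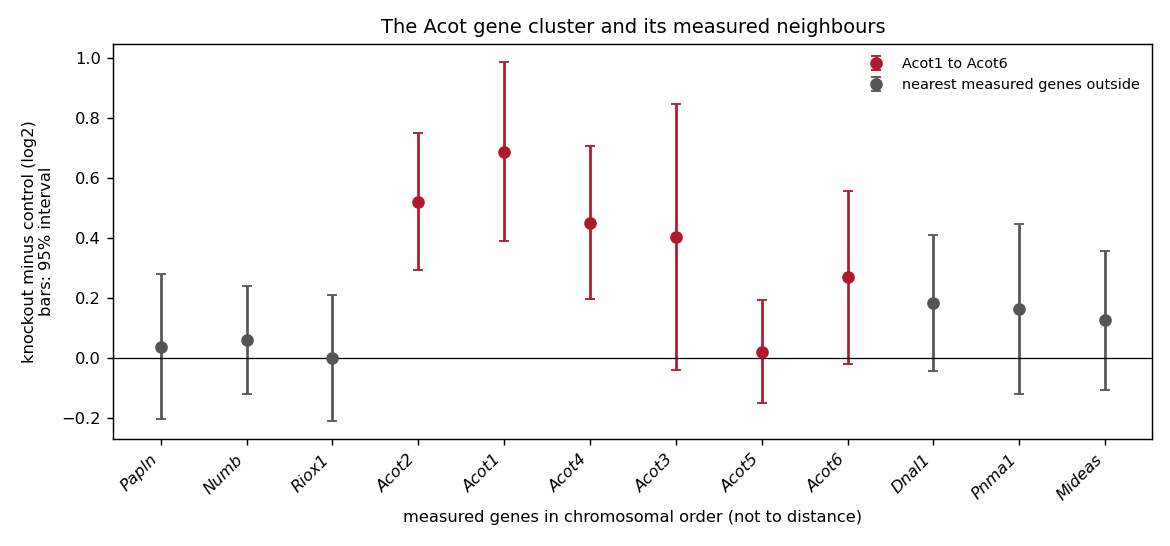
Knockout minus control difference on the log2 scale with its 95% interval (vertical axis) for the measured genes of the Acot cluster and the 3 nearest measured genes on each side, in chromosomal order (horizontal axis, not to distance). Acot2, Acot1, Acot4 and Acot3 lie between 0.40 and 0.69, and the flanking genes between -0.00 and 0.18.

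Outside the cluster the firmest rise was that of Them7, a member of the thioesterase superfamily. It read 8.37, 8.51, 8.55 and 8.44 in knockout samples of set 1, against 7.93, 7.79 and 7.97 in control samples. In set 2 it read 8.77, 8.89, 8.86 and 9.23 in knockout samples, against 8.11, 8.30 and 8.16 in control samples. All 8 knockout samples were above all 6 controls, of their own and of the other set, since the lowest knockout value was 8.37 and the highest control value 8.30. Across sets this comparison also includes the set gap of Them7 (0.40, set 2 minus set 1), and its share over all genes was not counted. The difference was 0.66 ± 0.08 (1.58-fold, 95% interval 1.40 to 1.78; adjusted p = 0.00300), with 0.57 ± 0.09 in set 1 and 0.75 ± 0.14 in set 2, and it ranked 3 among all genes by p. The call held without any 1 array (adjusted p up to 0.0131) and without control 1 and control 4 (adjusted p = 0.0211). It did not hold without the set term (adjusted p = 0.386). Permutation within the sets gave the smallest possible p here too (exact, p = 0.000816; 0.0856 adjusted over all genes).

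Acot8 is the peroxisomal thioesterase of broad substrate range, which also takes bile acid intermediates. Knockout samples read 8.28, 8.54, 8.60 and 8.54 in set 1, against 8.02, 8.16 and 8.11 in control samples. In set 2 knockout samples read 8.11, 8.07, 7.93 and 8.13, against 7.80, 7.59 and 7.67 in control samples. The groups did not overlap within a set, and the rise was nearly the same in both, 0.39 ± 0.10 in set 1 and 0.37 ± 0.12 in set 2. Together they gave 0.38 ± 0.07 (1.30-fold, 95% interval 1.17 to 1.45; adjusted p = 0.0254). Leaving out knockout 4, control 1, control 2 or control 5 ended the call (highest adjusted p 0.0594), as did leaving out both control 1 and control 4 (adjusted p = 0.0686). Exact permutation within the sets gave p = 0.00163 for Acot8 and p = 0.00245 for Acot2, which were 0.113 and 0.129 after adjustment over all genes.

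Them4, a mitochondrial thioesterase also known as a binding partner of the kinase Akt, came close to the threshold. It read 7.45, 7.30, 7.42 and 7.62 in knockout samples of set 1, against 7.01, 6.74 and 7.31 in control samples. In set 2 it read 6.80, 6.67, 6.90 and 6.77 in knockout samples, against 6.61, 6.27 and 6.42 in control samples. Of 8 knockout samples 7 lay above every control of their set, the exception being knockout 2, just under control 3. The difference was 0.39 ± 0.09 (1.31-fold; 95% interval of the log2 difference 0.20 to 0.58; adjusted p = 0.0676), close to that of Acot8 with a wider error. Leaving out control 3 brought it past the threshold (adjusted p = 0.0377).

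The remaining pair differed little between the groups. Acot12, the cytosolic enzyme that hydrolyses acetyl-CoA in liver, ranged from 10.22 to 10.88 in knockout samples (median 10.50), against 10.14 to 10.73 in control samples (median 10.44). Its difference was 0.08 ± 0.07 (95% interval -0.07 to 0.24; adjusted p = 0.770). Acot13, also called Them2, a long-chain thioesterase associated with mitochondria and a partner of the phosphatidylcholine transfer protein, ranged from 10.15 to 11.13 in knockout samples (median 10.71), against 10.18 to 11.30 in control samples (median 10.75). Its difference was -0.08 ± 0.06 (95% interval -0.21 to 0.06; adjusted p = 0.743). The intervals leave room for changes of at most about 0.24 upward for Acot12 and -0.21 downward for Acot13. For Acot13 all 4 knockout samples of set 1 lay below the 3 controls, at 11.07 to 11.13 against 11.15 to 11.30, but the groups overlapped in set 2. The share of all genes separated within 1 set, here or for Acot2 in set 2, was not counted, so neither is read as a result.

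**Figure D3:**
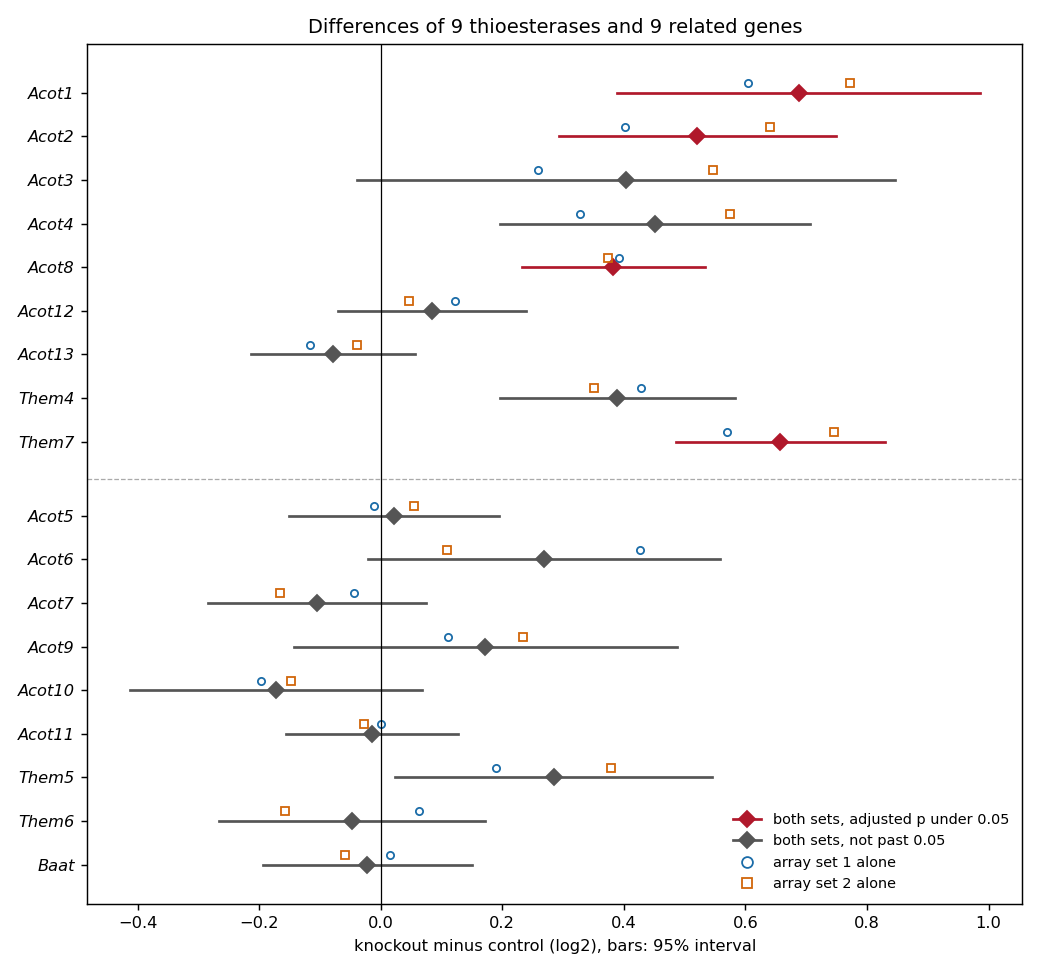
Knockout minus control on the log2 scale (horizontal axis) for the 9 thioesterases (top) and 9 related genes (bottom). Diamonds with bars are the value and 95% interval over both sets, red where the adjusted p was under 0.05, and open circles and squares are set 1 and set 2 alone. Acot1, Acot2, Acot8 and Them7 are red, and none of the lower 9 is.

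No test of a difference between the sets passed for any of the 9 genes. For the 4 genes that rose, set 2 minus set 1 of the knockout difference was 0.17 for Acot1 (95% interval -0.45 to 0.78), 0.24 for Acot2 (-0.22 to 0.69), -0.02 for Acot8 (-0.33 to 0.29) and 0.18 for Them7 (-0.17 to 0.52). The interaction in limma gave an adjusted p of 0.998 for each, with 0 of all genes called and 943 at an unadjusted p under 0.05. The intervals are at least as wide as the rises themselves, so unequal rises may have gone undetected. In either set alone 0 of the 9 passed, while of all 19505 genes 2 passed in set 1 alone and 2 in set 2 alone.

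**Figure D4:**
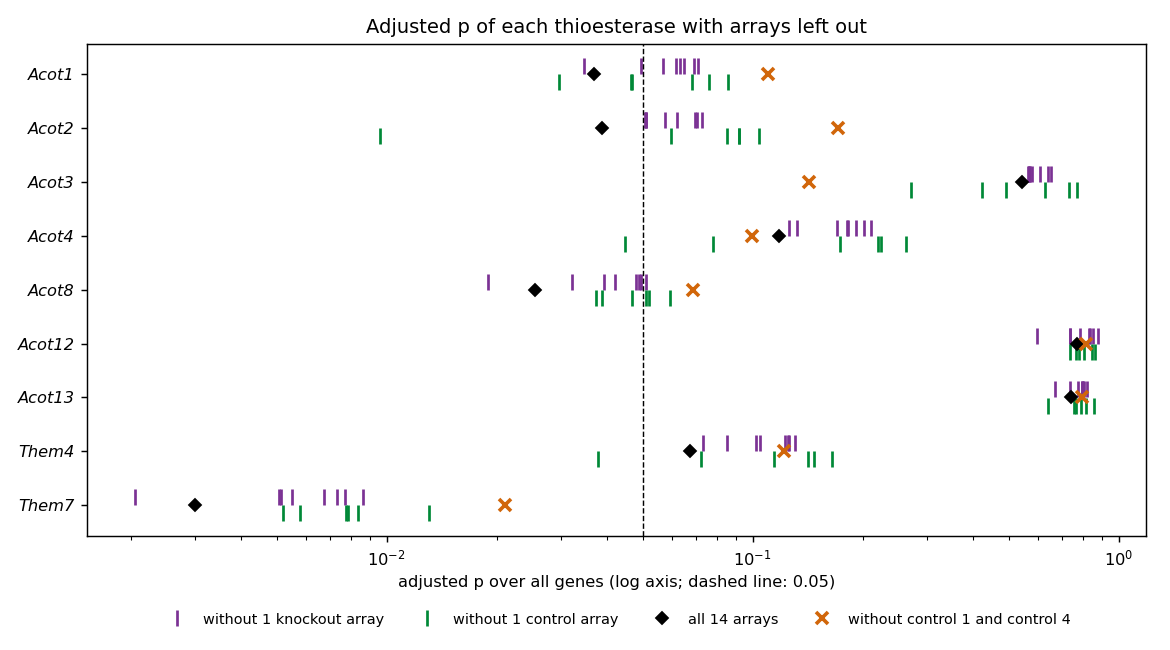
Adjusted p over all genes (horizontal log axis, dashed line at 0.05) of each thioesterase with all 14 arrays (diamonds), without 1 knockout array or 1 control array (ticks), and without control 1 and control 4 (crosses). Them7 stays left of the line throughout, at 0.0131 at most among the ticks, while Acot1, Acot2 and Acot8 have ticks on both sides of it and crosses to its right.

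Among the other thioesterase genes none passed the test. In the list of 9 further genes 4 had a positive difference, 0 passed, and the median was -0.01. Over all genes 0.702% passed, so 0 of 9 is near that share. Them5, a mitochondrial thioesterase of cardiolipin remodelling, was 0.28 ± 0.12 (adjusted p = 0.424), and Acot6 was 0.27 ± 0.14 (adjusted p = 0.533). For Acot6, 7 of 8 knockout samples lay above every control of their set. Knockout 5, at 4.71, lay below every control of its set (5.08 to 5.35). The Acot6 difference was 0.43 in set 1 and 0.11 in set 2. The share of all genes with such partial counts, here and for Acot4 and Them4, was not counted. The cytosolic Acot7 was -0.10 ± 0.08, and Acot11, known as Them1 and for its role in brown fat, -0.01 ± 0.07. The mitochondrial Acot9 was 0.17 ± 0.15 and its relative Acot10 -0.17 ± 0.11, with Acot10 means of 3.25 in knockout and 3.42 in control samples. Acot9 had a set gap of -2.31, the widest of the 18 thioesterase genes named here. Them6 was -0.05 ± 0.10, and Baat, which shares the type I fold and joins bile acids to amino acids, -0.02 ± 0.08.

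Within groups, Acot3 and Acot4 varied together from sample to sample. Deviations from the mean of each group within each set had a Pearson r of 0.85 over 14 samples (permutation within sets, p = 0.00118; 0.00708 adjusted over 6 pairs) and a Spearman rho of 0.70 (permutation p = 0.00976; 0.0586 adjusted). The r was 0.72 in set 1, 0.93 in set 2 and 0.69 without control 4 and control 6, the samples farthest out for Acot3. It was 0.91 over the 6 controls and 0.32 over the 8 knockout samples, and the difference between those was not tested. The other 5 pairs among Acot1 to Acot4 had r of 0.17 to 0.54, none past 0.05 after adjustment. Acot1 and Acot2 had an r of 0.40 and a rho of 0.45 (permutation p = 0.145 and p = 0.0990). With the group difference left in, the r of Acot1 and Acot4 was 0.81 and that of Acot1 and Acot2 0.80, values that include the group difference.

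**Figure D5:**
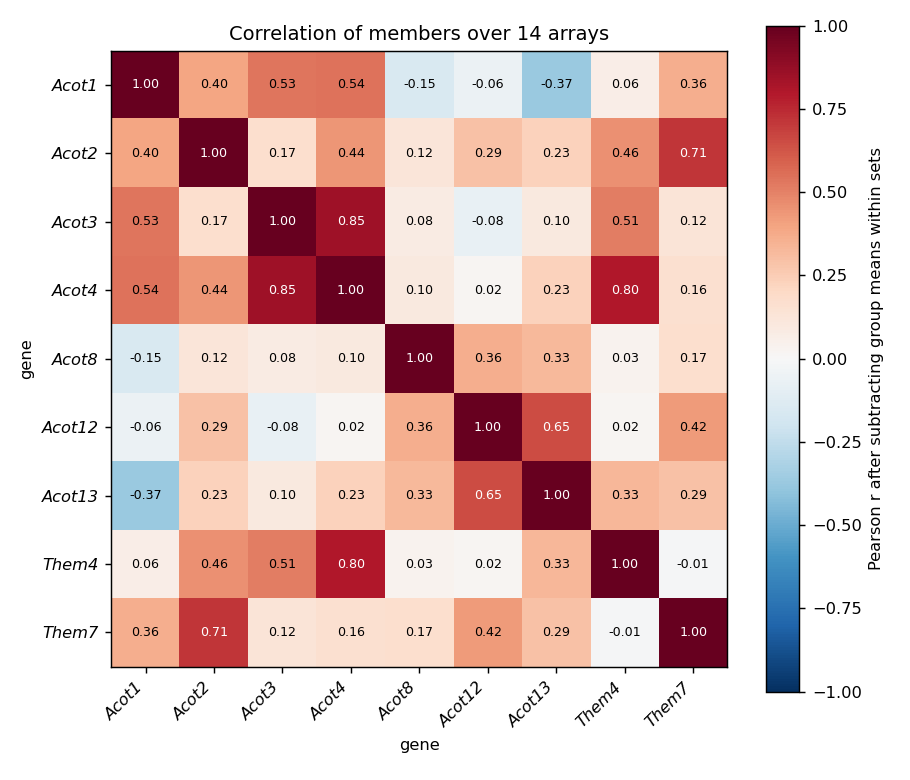
Pearson r between the 9 thioesterases over 14 arrays after subtracting the mean of each group within each set, as a matrix of genes with colour from -1 to 1. The Acot3 and Acot4 cell reads 0.85, and Acot4 with Them4 reads 0.80; these values other than the 6 pairs among Acot1 to Acot4 are a description without a test.

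Genes whose profile over the 14 arrays was most like a thioesterase were ranked by Pearson r after subtracting the set means, a description that the group difference itself shapes. Nearest to Them7 were Ephx1 (0.96), Tspan31 (0.96), Slc25a20 (0.95), Plin2 (0.95) and Aldh3a2 (0.94). Of these Slc25a20 encodes the carnitine carrier of mitochondria, Plin2 a coat protein of lipid droplets and Aldh3a2 a fatty aldehyde dehydrogenase. Nearest to Acot1 were Hadha (0.93), Ehhadh (0.93), Cyp4a14, Cyp4a10 and Vwa8 (0.92 each), where Hadha and Ehhadh belong to mitochondrial and peroxisomal fatty acid oxidation and both Cyp4a enzymes to omega-oxidation. With group means also removed, the r of Acot1 with these 5 genes was 0.77 to 0.91, the highest being that of Cyp4a14. Cyp4a14 itself did not pass (0.29, adjusted p = 0.327). Nearest to Acot8 were Smim15 (0.94), Hsd17b11 (0.91), Bst2, Nom1 and H3f3b (0.90 each), of which Hsd17b11 is a lipid droplet enzyme. Without the group means, the r of Acot8 was 0.46 with Hsd17b11, 0.57 with Bst2 and 0.87 with Smim15, and that of Them7 was 0.53 with Aldh3a2 and 0.82 with Plin2.

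Lists of related genes set the thioesterases in context. Of 33 measured PPAR alpha targets outside the 9, 32 had a positive difference, 9 rose and 0 fell, with a median of 0.20. Over all genes 9860 of 19505 had a positive difference and 0.431% rose. The 4 largest were Fgf21, a fasting hormone (1.17 ± 0.23), Crat, a carnitine acetyltransferase (0.78 ± 0.12), Ehhadh (0.75 ± 0.11) and Pex11a, a peroxisome division gene (0.56 ± 0.08). The Fgf21 difference was 1.62 in set 1 and 0.72 in set 2, and leaving out any 1 of 11 arrays ended its call (highest adjusted p 0.0875). The count was 5 without knockout 1, control 1, control 2 or control 4, and 2 without control 1 and control 4 together or without knockout 7 and knockout 8. Acyl-CoA synthetases, which catalyse the opposite reaction, had 10 of 20 measured genes positive, 0 called and a median of 0.01. Of 22 listed synthetases 2 had no row, and Acsl1 is not among the 20, so the list is incomplete. The differences ran from -0.24 ± 0.07 for Acsm3 (limma, adjusted p = 0.162) to 0.23 ± 0.12 for Acsm2. For Acsm3 all 8 knockout samples lay below every control of their own set, which held for 0.538% of all genes. No synthetase had all 8 above. The 12 genes of coenzyme A synthesis and cleavage had a median of 0.02 and 0 called. The 6 acyl-CoA binding proteins had 0.03 and 0 called, and the 11 genes of PPAR regulators -0.01 and 0 called. Ppara, the highest of these 11, was 0.21 ± 0.07 and did not pass (limma, adjusted p = 0.217). Over all 19505 genes the median was 0.00 and 0.702% passed, so a count of 0 in lists of these sizes is near that share.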

How the data were processed

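Liver total RNA of 8 knockout and 6 control samples was labelled with the WT PLUS kit for Affymetrix arrays, per the labels' protocols. The authors deposited 1 log2 value per transcript cluster and sample: RMA and Partek are named without versions in the submitters' processing notes, and the log2 scale was inferred from the values (2.13 to 13.8). They were used without further normalization. Array values carry no read depth, and the number of arrays limits the precision.

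Of 22206 rows, 19572 had 1 gene symbol, updated through NCBI gene identifiers, and 2634 were unnamed here. Where several rows shared a symbol (55 genes), that of highest mean value was kept, leaving 19505 genes. Array sets were found by average-linkage clustering of the correlations between arrays (2 clusters). Differences were fitted with limma 3.58.1 under R 4.3.3 (lmFit, eBayes), the set being a term, Benjamini-Hochberg over all genes, threshold 0.05 and no fold minimum. Single genes were also tested by exact permutation within sets (1225 splits), and 6 gene pairs by 100000 permutations within sets (numpy 2.4.6). The fit was tested on simulated data. Members, lists, the set term and the alternatives were chosen with earlier results of these data known, so no pattern here is independent of them. The text names the 9 members, the 9 other thioesterases, Prkaa1 and Prkaa2, up to 4 called members of each list by largest difference, and the 5 nearest profiles to each of the 3 members with the smallest p, leaving out predicted genes and RIKEN clones. Listed genes without a row were not analysed here: 2 of 22 acyl-CoA synthetases, 2 of 35 PPAR alpha targets, 3 of 15 coenzyme A genes and 3 of 14 PPAR regulators. RefSeq upstream sequences (GRCm38.p6) were found for 8 of the 9 members. Alternatives were the fit without the set term, each set alone, quantile normalization, median centring, a filter on dim genes (higher group mean under 5), eBayes with trend and robust, array weights, a replicate block, arrays left out or averaged, the mean of rows per gene, and thresholds of 0.1 and 0.01. Replicate numbers are shared by the titles of both groups, but nothing says that a number marks a pair.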

Additional observations from a re-analysis of the deposited data

Results flagged for a closer look

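Acot3 in knockout 3 read 10.16, the highest of the 4 knockout samples of set 1, whose other 3 values were 9.85, 9.86 and 9.90. Its gap to the next sample, set against the range of the 4, was past Dixon's 95% critical value. It was the 1 sample flagged in 36 groups examined over the 9 genes, and chance alone marks about 1 in 20 groups. It is not the only value apart from its group. Among the groups of 3 controls, Acot2 in control 3 read 8.50 against 7.92 and 7.92 and was not flagged. Neither were Acot13 in control 5 (10.18 against 10.35 and 10.35) and Acot12 in control 5 (10.62 against 10.72 and 10.73).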

How the results depend on the processing

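The number of thioesterases past the threshold, 4 of 9, was 0 without the set term, in set 1 alone, in set 2 alone and with a replicate block, 1 without control 1 and control 4, without knockout 7 and knockout 8 or at a threshold of 0.01, 2 with knockout 5 and 7 and knockout 6 and 8 averaged, and 1 to 6 without 1 array (1 without knockout 4, control 1 or control 2). All 9 differences kept their sign under every alternative. Over all genes the count of 137 was 0 without the set term (655 at an unadjusted p under 0.05), 2 in set 1 alone, 2 in set 2 alone, 2 with a replicate block, 223 without dim genes, 325 with trend and robust, 67 with the averaged samples, 12 without knockout 7 and knockout 8, 26 without control 1 and control 4, 242 and 18 at thresholds of 0.1 and 0.01, and 44 to 132 without 1 array. The causes were not tested, but the block leaves 4 residual degrees of freedom and 1 set alone 5. PPAR alpha targets past the threshold, 9 in all, were 0 without the set term, in either set alone and with the block, 17 with trend and robust, 2 without knockout 7 and knockout 8, 2 without control 1 and control 4, 4 at 0.01 and 5 to 8 without 1 array. With trend and robust 1 acyl-CoA synthetase, 1 acyl-CoA binding protein and 1 PPAR regulator passed, and 1 acyl-CoA binding protein also passed without dim genes and at 0.1. Deviations from group means correlated between same-numbered samples at 0.70 to 0.76 for numbers 1, 2, 3, 5 and 6, whose samples share an array set, and at -0.70 for number 4, whose samples do not. Taken within sets they correlated at 0.02 to 0.09, so the numbers were not used as pairs. Exact permutation within sets called 0 genes after adjustment (2126 at an unadjusted p under 0.05).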
